A study of Rattus norvegicus with 6 samples.

Results

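Rows of the count table named exactly 5S_rRNA, Y_RNA, Metazoa_SRP or Vault were described as copies of 4 kinds of small noncoding RNA. The rule is by name alone and used no measured value. It took 349 of the 32883 rows, with 287 5S_rRNA rows, 28 Y_RNA rows, 33 Metazoa_SRP rows and 1 Vault row, each row under its own Ensembl identifier. The cells were GH4C1, a rat pituitary tumour line related to the cells that make growth hormone and prolactin. They are labelled wild type and were treated with psoralen, which crosslinks base-paired nucleic acid strands. The study design seeks the RNAs directly bound to the long noncoding RNA Neat1, and RNA was retrieved with oligo pool A in 3 libraries and with oligo pool B in 3 libraries. All 6 libraries share the cell line, the genotype and the psoralen treatment, and what distinguishes the pools, or whether either is a control, is not stated in the sources used here. The labels do not say whether libraries came from separate cultures, so p-values measure the spread between these libraries, which may be technical.

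All of these RNAs are made by RNA polymerase III. Mammalian genomes carry many dispersed copies of 5S, Y and SRP RNA, a large part of which are pseudogenes. 5S rRNA is the small RNA of the large ribosomal subunit. SRP RNA, also called 7SL, is the scaffold of the signal recognition particle, which brings ribosomes that translate secreted and membrane proteins to the endoplasmic reticulum, the entry to the secretory pathway of hormone-producing cells. Y RNAs bind the Ro60 protein, and vault RNA belongs to the vault, a large ribonucleoprotein particle built mainly of major vault protein. Copies of 1 family resemble each other closely, and how reads that fit several copies were counted is not stated in the sources used here, so the value of a single copy is uncertain. If such reads were left out, near-identical copies would be listed at 0 and the sums over a name would be too low, so neither zeros nor sums measure how much of an RNA was retrieved.

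The total counts were between 1826390 and 3685899 per library. Levels are given in CPM, a row's counts scaled by the library's total. Where a row is at 0, its true level could be as high as 3 counts, or 0.814 to 1.64 CPM by library, for counting error only. All 4 lineage markers were present in every library. Prl was higher with pool A, at 680 to 759 CPM against 386 to 498 CPM with pool B. Gh1 had 149 to 187 CPM over all libraries. Pou1f1 had 139 to 167 CPM with pool A and 167 to 227 CPM with pool B. Chgb, which encodes a secretory granule protein, had 3411 to 4225 CPM with pool A and 27494 to 34676 CPM with pool B, so the summed level of the list was 4503 to 5244 CPM against 28335 to 35379 CPM. Of 6 matched markers of other cell types, Fshb and Tshb were at 0 throughout. The summed level of these markers was 9.49 to 25.1 CPM with pool A and 41.9 to 45.4 CPM with pool B. Lhb was the highest of them in every library, at 9.10 to 16.0 CPM with pool A and 40.0 to 45.0 CPM with pool B, and the leukocyte gene Ptprc had 0.395 to 5.65 CPM with pool A and no count with pool B. The part of either list in the results was not tested.

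Few counts were assigned to these rows. The 349 rows together received 398, 296 and 669 counts with pool A and 387, 249 and 298 counts with pool B. This was between 0.0108% (95% Wilson interval 0.00979% to 0.0119%) and 0.0210% (0.0195% to 0.0226%) of a library, with the highest share in pool A replicate 3. These intervals, and those plotted for the sums, cover counting error only, and libraries of the same pool differed by more than counting error (chi-square per degree of freedom 5.24 to 7.83 over the table's rows). In all, 282 rows had no count in any library, which is 80.8% of these rows against 42.5% of all rows of the table. The share at 0 was 84.3% for 5S_rRNA, 82.1% for Y_RNA and 51.5% for Metazoa_SRP. Rows of other repeated small RNA names were also mostly at 0, with 78.6% of 919 U6 rows, 77.3% of 220 U1 rows and 72.2% of 424 7SK rows. Of the 67 rows with a count, 30 had counts in a single library, and 2 rows, both Metazoa_SRP, reached 10 counts in every library.

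The pools were first compared in the counts summed over all copies of a name. Neither sum that could be tested, 5S_rRNA or Metazoa_SRP, differed past the threshold between the pools. The sums were tested in edgeR's quasi-likelihood model with all other rows of the table, where 40.6% of the rows were called at an adjusted p under 0.05. The Y_RNA and Vault sums were too low to enter the test.

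**Figure D1:**
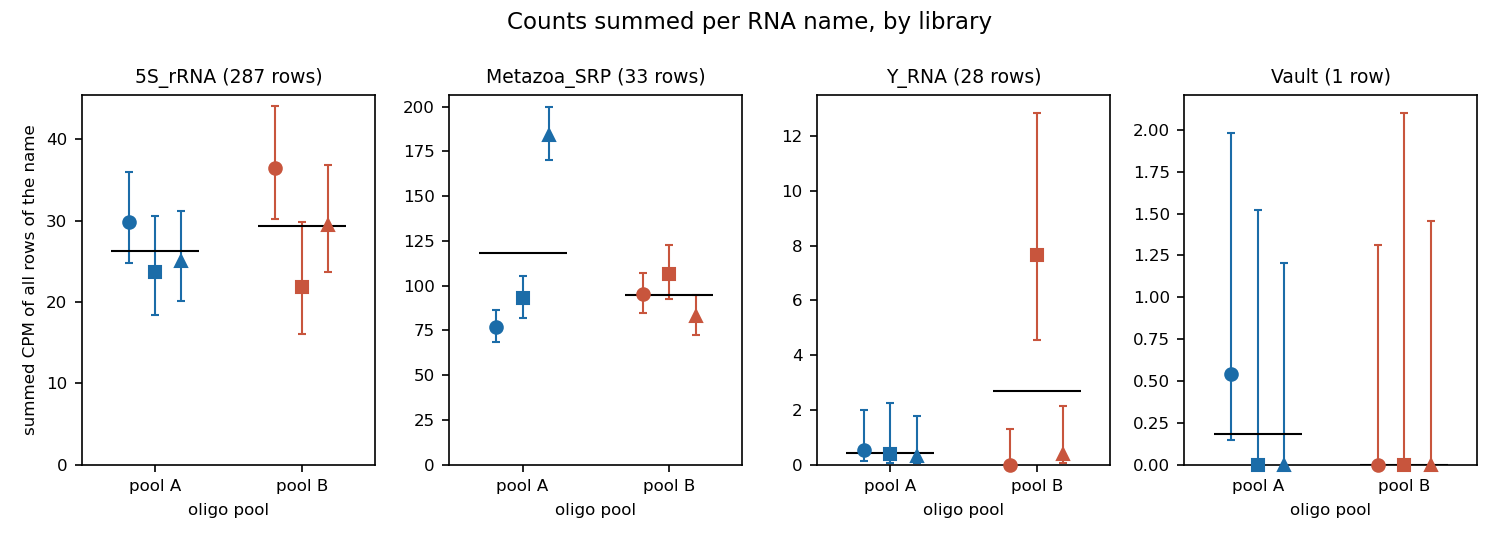
Summed CPM of all rows of a name in each library, with 95% Wilson intervals (counting error only) as bars and the mean of a pool as a black line; each panel has its own vertical axis, and circles, squares and triangles are replicates 1, 2 and 3. The 5S_rRNA libraries of both pools overlap, and the Metazoa_SRP sum of pool A replicate 3, at 184 CPM, lies above the 5 other libraries.

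The SRP RNA rows held the most counts of the 4 names, 1801 over the 6 libraries. Their sum was 77.1, 92.9 and 184 CPM with pool A and 95.4, 107 and 82.9 CPM with pool B. A single library, pool A replicate 3, stood above all others, while the other pool A libraries lay within or below the range of pool B. The means, over 3 libraries each, were 118 ± 58 CPM (SD) for pool A and 95.0 ± 12.0 CPM (SD) for pool B. The log2 fold change of pool A over pool B was 0.44 ± 0.21 (SE), with a 95% interval of 0.01 to 0.88 and an edgeR adjusted p of 0.0954. Without pool A replicate 3 the log2 fold change was 0.05, with an edgeR adjusted p of 0.871, and without pool A replicate 1 it was 0.67, with an edgeR adjusted p of 0.0124. Upper-quartile scaling, with 0.55, and testing with no filter on low counts, with 0.45, also brought the sum past the threshold (edgeR adjusted p 0.0385 and 0.0391).

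Pool A replicate 3 also had the highest level among the pool A libraries of 2 other RNA polymerase III products. RNase_MRP, the RNA of the ribonuclease that cuts ribosomal RNA precursors, had 10171, 10259 and 15361 CPM with pool A and 8964, 10387 and 9147 CPM with pool B, and was higher with pool A by a log2 fold change of 0.46 ± 0.16 (SE, edgeR adjusted p 0.0195). Rpph1, the RNA of the ribonuclease that trims tRNA precursors, had 2504, 2338 and 4815 CPM with pool A and 15563, 25743 and 16417 CPM with pool B, and was lower with pool A, with a log2 fold change of -2.45 ± 0.21 (SE, edgeR adjusted p 3.12e-10). The 5S_rRNA sum of pool A replicate 3, at 25.1 CPM, was not the highest of its pool. The part of this library's makeup in the SRP RNA values was not tested.

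Most SRP RNA counts came from one copy. Neighbours of a copy are given here by the order of the table, not from coordinates. ENSRNOG00000048993, which stands after Zfp622, received 233, 187 and 412 counts with pool A and 229, 143 and 182 counts with pool B, 77.0% of all counts of the name. In CPM these were 63.2, 74.0 and 129 with pool A and 78.1, 78.3 and 68.9 with pool B, so the ranges overlapped and pool A replicate 3 was the highest. Its log2 fold change was 0.37 ± 0.20 (SE), with a 95% interval of -0.04 to 0.79 and an edgeR adjusted p of 0.146. Without pool A replicate 3 the value was 0.08, and without pool A replicate 1 it was 0.57, past the threshold with an edgeR adjusted p of 0.0329. The rows on either side held far fewer counts, with 57 for Zfp622 and 12 for AABR07008911.1 over the 6 libraries.

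The copy held a similar part of the SRP RNA counts with both pools. Its share was 82.0%, 79.6% and 70.1% with pool A and 81.8%, 73.3% and 83.1% with pool B. The means of 77.2% ± 6.3 (SD, n = 3) and 79.4% ± 5.3 (SD, n = 3) gave p = 0.6 in an exact two-sided permutation test, whose smallest possible p with 3 against 3 libraries is 0.1. The lowest share was that of pool A replicate 3, where the other copies together had 176 counts against 37 to 52 in the remaining libraries.

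The second copy, ENSRNOG00000053717, lies between clone-named rows near Ptdss1. It had 30, 28 and 105 counts with pool A and 46, 38 and 19 counts with pool B. Pool A replicate 3 was the highest library and pool B replicate 3 the lowest in CPM, at 32.9 and 7.19. The log2 fold change was 0.39 ± 0.44 (SE) at an edgeR adjusted p of 0.514, and it turned to -0.38 without pool A replicate 3.

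The third copy, ENSRNOG00000060374, had 2, 0 and 40 counts with pool A and 0, 7 and 0 counts with pool B, so a single library held most of its counts. It was too low for the test. These 3 copies held 94.4% of all SRP RNA counts, and the other 13 copies with a count had 24 or fewer each. Without its leading copy the SRP RNA sum had a log2 fold change of 0.70 ± 0.37 (SE) at an edgeR adjusted p of 0.146, and of -0.06 without pool A replicate 3. Without pool A replicate 1 it was 1.04, past the threshold with an edgeR adjusted p of 0.0291.

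**Figure D2:**
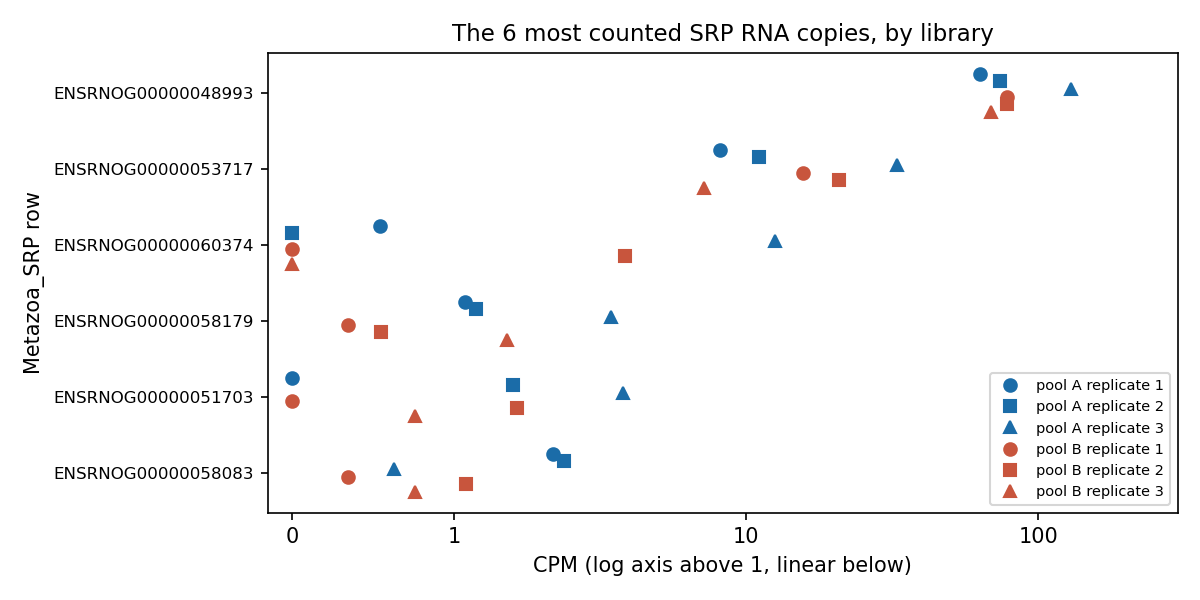
CPM of the 6 most counted Metazoa_SRP rows in each library, on an axis that is logarithmic above 1 CPM and linear below; blue marks are pool A, red marks are pool B, and circles, squares and triangles are replicates 1, 2 and 3. ENSRNOG00000048993 lies above all other copies in every library, and pool A replicate 3 (blue triangle) is the highest library in 5 of the 6 rows.

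One SRP RNA copy was counted in every pool A library and in no pool B library. This was 6.25% of the 16 Metazoa_SRP rows with a count, against 0.576% of all rows with a count. The share was 2.03% for U6, 1.69% for 7SK and 6% for U1. ENSRNOG00000052862, next to Sdc2, had 3, 2 and 5 counts with pool A. With a floor of 3 counts over the 3 pool B libraries, its pool A level was 2.62-fold higher, with its own counts taken as exact. It was singled out after its values were seen and was too low for the test. With no filter on low counts it did not pass the threshold (edgeR adjusted p 0.177). The row of the annotated SRP RNA gene Rn7sl1, which does not carry the name Metazoa_SRP, had 5, 2 and 11 counts with pool A and 10, 0 and 0 counts with pool B.

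The 5S rRNA rows were close to equal between the pools in sum. They received 110, 60 and 80 counts with pool A and 107, 40 and 78 counts with pool B. In CPM the sums were 29.8, 23.7 and 25.1 with pool A and 36.5, 21.9 and 29.5 with pool B. Both the highest and the lowest library belonged to pool B, and the pools overlapped. The means were 26.2 ± 3.2 CPM (SD, n = 3) and 29.3 ± 7.3 CPM (SD, n = 3). The log2 fold change was -0.02 ± 0.27 (SE) at an edgeR adjusted p of 0.955, and its 95% interval ran from -0.58 to 0.53. A difference of either sign within this interval was compatible with these counts. The sign of the estimate depended on the scaling, with 0.08 under upper-quartile factors.

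Counts of 5S rRNA were spread over many rows. A count was found in 45 of 287 copies, and 21 of these had counts in a single library. Of the 45 copies, 19 (42.2%) had counts with pool A only, 7 (15.6%) with pool B only and 19 with both. Among all rows with a count, 9.71% had counts with pool A only and 6.42% with pool B only, and the shares were 29.4% and 20.8% for U6, 26.3% and 20.3% for 7SK. Of the 50 U1 rows with a count, 21 were seen with pool A only and 5 with pool B only. The 3 most counted copies held 41.3% of the counts of the name, against 94.4% for SRP RNA. The number of copies with a count was 26, 19 and 18 in the pool A libraries and 17, 12 and 12 in the pool B libraries. These ranges did not overlap (exact two-sided permutation p = 0.1, the smallest possible), but the pool A libraries were on the whole deeper. With all libraries thinned to the smallest total, a step chosen after seeing the data, the expected numbers were 20.7, 17.2 and 13.7 with pool A and 15.8, 12.0 and 10.3 with pool B. The ranges then overlapped and the exact two-sided permutation p was 0.2.

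**Figure D3:**
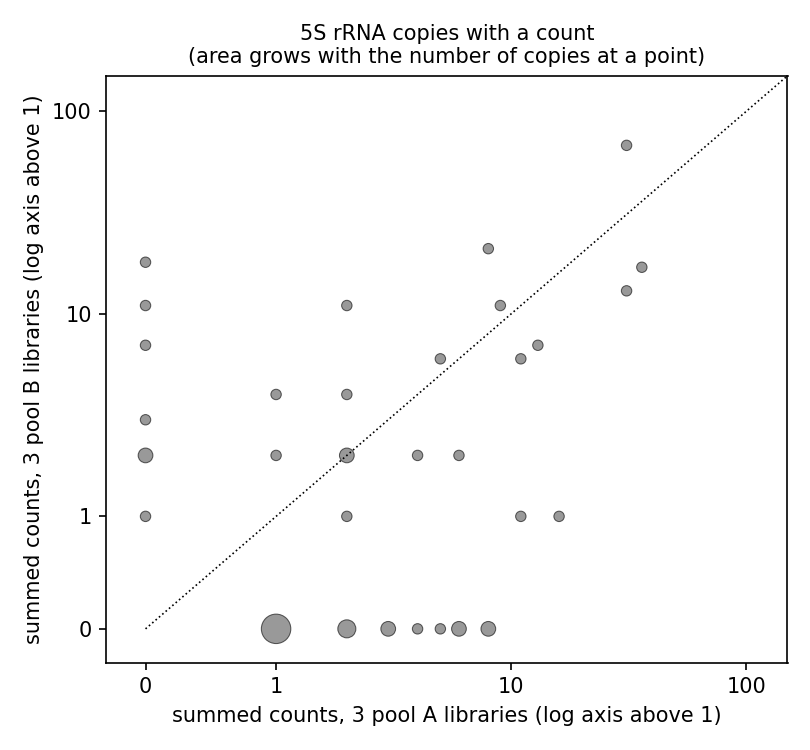
Each point is a 5S_rRNA row with at least 1 count, or several rows at the same place with a larger area; the axes give its summed counts over the 3 pool A and the 3 pool B libraries, logarithmic above 1, and the dotted line marks equal counts, not corrected for depth. Of the 45 copies, 19 lie at 0 for pool B and 7 at 0 for pool A, and the most counted copy has 99 counts in all.

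The most counted 5S copy, ENSRNOG00000044867, lies between Ppm1d and Tbx2. It had 9, 4 and 18 counts with pool A and 16, 14 and 38 counts with pool B, or 2.44, 1.58 and 5.65 CPM against 5.45, 7.67 and 14.4 CPM. The highest pool A library slightly exceeded the lowest pool B library. The log2 fold change was -1.36 ± 0.62 (SE), with a 95% interval of -2.63 to -0.10 and an edgeR adjusted p of 0.0808. Without pool A replicate 3 it was -1.94, past the threshold with an edgeR adjusted p of 0.0423, and without pool B replicate 3 it was -0.86, with an edgeR adjusted p of 0.437. Of its neighbours, Ppm1d, the gene of a p53-induced phosphatase, was higher with pool A by a log2 fold change of 1.06 ± 0.29 (SE, edgeR adjusted p 0.00461), and Tbx2 had -0.21 ± 0.50 (SE, edgeR adjusted p 0.776).

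This copy took a larger share of the 5S counts in 2 of the 3 pool B libraries than in any pool A library. The share was 8.18%, 6.67% and 22.5% with pool A and 15.0%, 35.0% and 48.7% with pool B. The ranges overlapped through pool A replicate 3 and pool B replicate 1. The mean difference, pool A minus pool B, of -20.4 percentage points gave an exact two-sided permutation p of 0.2. It was -12.5 points without pool B replicate 3 and -29.4 points without pool B replicate 1. Without this copy, the log2 fold change of the 5S sum was 0.32 ± 0.32 (SE) at an edgeR adjusted p of 0.464. It was 0.79 without pool B replicate 1, with an edgeR adjusted p of 0.0787. Leaving out 3 other libraries, each in turn, lowered it to 0.13 (pool B replicate 2), 0.15 (pool B replicate 3) and 0.17 (pool A replicate 1).

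The next 2 copies were uneven within pools and fell below the filter. ENSRNOG00000044353, after Coro2b, had 20, 9 and 7 counts with pool A and 14, 2 and 1 counts with pool B. ENSRNOG00000044330, between Agap1 and Gbx2, had 4, 2 and 25 counts with pool A and 12, 0 and 1 counts with pool B. Both overlapped between the pools, and the second rested mainly on pool A replicate 3.

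Of the 7 5S copies with no count for pool A, 1 was counted in every pool B library. ENSRNOG00000055067, whose adjoining rows were both at 0, had 3, 3 and 12 counts with pool B. Against a floor of 3 counts over the 3 pool A libraries, its level with pool B was 7.62-fold higher, with its own counts taken as exact. It passed the threshold where no filter on low counts was applied (edgeR adjusted p 0.0326), a setting in which 25.1% of 18911 rows were called. ENSRNOG00000045755, between Spidr and Mzt2b, had 7, 0 and 4 counts with pool B. This was 4.66-fold higher by the same floor, with its counts again taken as exact. Without the filter this copy did not pass (edgeR adjusted p 0.130). The 5 others had 7 or fewer counts. In the opposite direction, 3 copies were counted in every pool A library and in no pool B library. Of the rows with a count, this was 6.67% of the 5S_rRNA rows, against 0.576% of all rows. It was 2.03% of U6, 1.69% of 7SK and 3 of 50 U1 rows. The pattern of ENSRNOG00000055067, with the pools exchanged, was found in 2.22% of the 5S_rRNA rows and 0.307% of all rows. The share in that direction was 1.52% for U6, 1.69% for 7SK and 2% for U1, close to that of 5S_rRNA. ENSRNOG00000035837 had 4, 2 and 2 counts, 2.10-fold higher by a floor of 3 counts over the pool B libraries, with its own counts taken as exact. ENSRNOG00000044576 had 1, 2 and 3 counts, and ENSRNOG00000046358 had 2, 1 and 2 counts. Without the filter these 3 copies did not pass (edgeR adjusted p 0.227, 0.290 and 0.342, in the order given). The copies of both directions named here were singled out after their values were seen. The annotated gene Rn5s, which does not carry the name 5S_rRNA, had 5 counts in the 6 libraries together.

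Few counts were assigned to Y RNA. The 28 rows had 2, 1 and 1 counts with pool A and 0, 14 and 1 counts with pool B. Pool B replicate 2, with 7.67 CPM, held 14 of the 19 counts, and no other library exceeded 0.543 CPM. These 14 counts lay on 3 rows, with 6 on ENSRNOG00000056311, 6 on ENSRNOG00000051558 and 2 on ENSRNOG00000061591. In mammals the Y RNA genes form a cluster beside Ezh2, and the table lists 3 Y_RNA rows between Ezh2 and Pdia4. They received 1 count in all, on ENSRNOG00000056608 in pool A replicate 1. Ezh2 itself, which encodes a histone methyltransferase, had 829 to 920 CPM with pool A and 66.8 to 81.7 CPM with pool B (log2 fold change 3.71 ± 0.15, SE, edgeR adjusted p 3.95e-17).

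The single Vault row, ENSRNOG00000052373, had 2 counts in pool A replicate 1 and 0 in the 5 other libraries. It stands next to Zmat2, beside which the vault RNA genes of mammals lie. Zmat2 was higher with pool A, by a log2 fold change of 0.68 ± 0.19 (SE, edgeR adjusted p 0.00571). At this depth no difference between the pools could be shown for Y RNA or vault RNA.

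Of all copies, 3 passed the filter on low counts, and 0 of these 3 were called, against 40.6% of all tested rows. At an unadjusted p under 0.05 there was 1 of 3, the 5S copy ENSRNOG00000044867, against 47.2% of all tested rows, and DESeq2 and limma-voom also called 0. The CPM ranges of the pools overlapped for all 3 copies, while 49.1% of all tested rows had ranges that did not overlap. Since the filter kept only 1 5S copy and 2 SRP copies, this count does not describe the 349 rows.

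The rows next to each copy in the table were compared between copies with a count and copies at 0. For 5S_rRNA, the better counted of the 2 adjoining rows had a median of 375 counts over the 6 libraries beside the 45 copies with a count, and of 58.5 counts beside the 242 copies at 0. It reached 100 counts beside 80.0% and 45.9% of these copies. For Y_RNA the medians were 391 beside 5 copies and 22.0 beside 23 copies. For Metazoa_SRP they were 26.5 beside the 16 copies with a count and 6 beside the 17 at 0, and an adjoining row reached 100 counts beside 37.5% and 35.3% of these copies. Of the 16 SRP copies with a count, 4 had both adjoining rows at 0. This is a description of table order, and whether reads of a neighbouring gene were counted on a copy was not tested.

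Many mRNAs of proteins that bind or assemble these RNAs differed between the pools. Of 19 listed genes, 16 were matched by name and tested. Of these, 2 were higher with pool A, 8 were higher with pool B and 6 did not pass, against 18.6% and 22.0% of all tested rows called in these directions. The median of their log2 fold changes was -0.47, while that of all tested rows was 0.02.

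**Figure D4:**
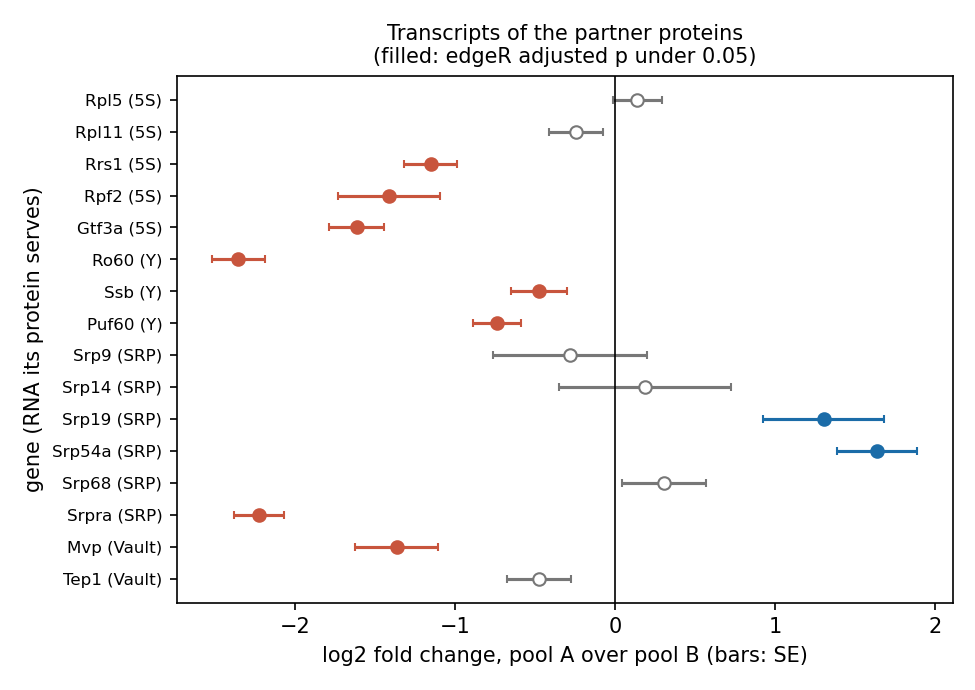
Log2 fold change of pool A over pool B with its SE for the 16 tested partner genes, labelled with the RNA their proteins serve; filled points passed an edgeR adjusted p under 0.05, blue higher with pool A and red higher with pool B. Ro60 and Srpra lie farthest towards pool B, and Srp54a and Srp19 farthest towards pool A.

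For 5S rRNA, 3 of 5 genes were higher with pool B. Gtf3a, which encodes the transcription factor TFIIIA that binds the 5S gene and its RNA, had 48.8, 54.6 and 86.9 CPM with pool A and 216, 223 and 201 CPM with pool B. All pool B libraries lay above all pool A libraries, with a log2 fold change of -1.61 ± 0.17 (SE) at an edgeR adjusted p of 1.15e-08. Rrs1 and Rpf2, whose products bring the 5S particle into the forming large subunit, had log2 fold changes of -1.15 ± 0.16 and -1.41 ± 0.32 (SE). The ribosomal proteins that bind 5S rRNA did not pass. Rpl5 had a log2 fold change of 0.14 ± 0.15 (SE, edgeR adjusted p 0.508) and Rpl11 one of -0.24 ± 0.17 (SE, edgeR adjusted p 0.269).

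All 3 genes listed for Y RNA were higher with pool B. Ro60, whose ring-shaped protein binds Y RNA and misfolded small RNAs, had 34.7, 30.5 and 44.9 CPM with pool A and 204, 210 and 207 CPM with pool B. The pools were far apart, with a log2 fold change of -2.35 ± 0.16 (SE) at an edgeR adjusted p of 3.64e-12. Puf60 had a log2 fold change of -0.74 ± 0.15 (SE, edgeR adjusted p 0.000239). Ssb encodes the La protein, which binds the ends of new RNA polymerase III transcripts, and had -0.47 ± 0.18 (SE, edgeR adjusted p 0.0328). The Ssb call was lost with upper-quartile factors (edgeR adjusted p 0.0983). It was also lost on leaving out the first library of pool A (edgeR adjusted p 0.211), the first of pool B (0.132) or the third of pool B (0.0828).

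The SRP genes went both ways. Srp54a, which encodes the subunit that binds signal peptides, had 59.7, 59.7 and 47.7 CPM with pool A and 24.9, 14.8 and 18.9 CPM with pool B. The ranges did not overlap, and the log2 fold change was 1.64 ± 0.25 (SE, edgeR adjusted p 5.13e-06). Srp19, whose product helps to assemble the particle, had 97, 80 and 39 counts with pool A and 31, 20 and 27 counts with pool B. In CPM its pool A libraries were 26.3, 31.6 and 12.2, and its pool B mean was 10.6 ± 0.4 (SD, n = 3), with no overlap. It passed at 1.30 ± 0.38 (SE) on the log2 scale (edgeR adjusted p 0.00649), but not without pool A replicate 2 (edgeR adjusted p 0.0698). Srpra, which encodes a subunit of the SRP receptor in the endoplasmic reticulum membrane, had 42.3, 46.3 and 43.6 CPM with pool A and 222, 221 and 239 CPM with pool B. It was higher with pool B, with a log2 fold change of -2.22 ± 0.16 (SE) at an edgeR adjusted p of 4.96e-12. Srp9, Srp14 and Srp68 did not pass, with log2 fold changes of -0.28 ± 0.48, 0.19 ± 0.54 and 0.31 ± 0.26 (SE).

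Of the 2 tested vault genes, 1 passed. Mvp, the gene of the major vault protein, had 30.1, 19.0 and 17.3 CPM with pool A and 72.3, 74.5 and 45.4 CPM with pool B. All pool B libraries were higher, with a log2 fold change of -1.36 ± 0.26 (SE) at an edgeR adjusted p of 9.28e-05. Tep1, whose protein is shared by vaults and telomerase, had -0.47 ± 0.20 (SE) with an edgeR adjusted p of 0.0587. Its call was gained with total counts alone, with an edgeR adjusted p of 0.0202, and without pool B replicate 3, with 0.0321.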

How the data were processed

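RNA from 6 pull-downs was measured as counts per gene. The authors deposited raw counts for 32883 rat genes and a mean per pool, which was not used. STAR and featureCounts are named in the submitters' processing notes without versions; build, annotation and treatment of reads with several matches are not given in the sources used here. No sequence or coordinate of the copies was used. Differences between pools were tested in R 4.3.3 by edgeR 4.0.16 (TMM, filter by group, quasi-likelihood test, pool as the only term, Benjamini-Hochberg adjustment over all tested rows, threshold 0.05). SE follow from the F statistic. Rows of each name were also replaced by their sum, with and without the leading copy (highest mean CPM), and refitted with the whole table. The scripts were tested on simulated data. Copies with the highest mean CPM, up to 3 per name, were named, with listed partner genes. Members, lists and rules were chosen with earlier results of these data known. Neighbours are rows next in the table. Against the GRCr8 RefSeq gene list, 98.9% of consecutive rows among 17199 matched names were on the same chromosome and 94.2% of these ascended, so some placements may not hold in the genome. The labels do not state a pairing of same-numbered libraries. Their deviations correlated with r of 0.0416, -0.0188 and 0.0211, and the main test used no pairing. Chi-square per degree of freedom was between 5.24 and 7.83 within pools, so no library was counted as a duplicate. Alternatives were other scalings, DESeq2 1.42.0, limma-voom (limma 3.58.1), no filter, a replicate block and leaving out each library.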

Additional observations from a re-analysis of the deposited data

How the results depend on the processing

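Low counts limited the tests: 2 of 349 copies reached 10 counts in every library, and 1 of them reached 20. The unstated handling of reads that match several copies bears on every value of a copy or a sum. With upper-quartile factors the 5S_rRNA sum turned to a log2 fold change of 0.077 and the Metazoa_SRP sum passed the threshold at 0.55. With no filter the Metazoa_SRP sum passed at 0.45, and 1 copy was called higher with pool B. Leaving out a library gave from -0.19 to 0.17 for the 5S_rRNA sum, from 0.050 to 0.67 for the Metazoa_SRP sum and from -0.057 to 1.04 for the latter without its leading copy. It gave from 0 to 1 copies called in each direction (higher with pool A without pool A replicate 1, higher with pool B without pool A replicate 3). It left from 1 to 2 partner genes higher with pool A. The leading SRP copy's share differed by -5.22 to 1.40 percentage points, turning without pool A replicate 3. ENSRNOG00000053717 ranged from -0.38 to 0.74, Srp9 from -0.66 to 0.17 and Srp68 from -0.18 to 0.66. Rpl5 had -0.0079 with total counts alone. The replicate block pairs libraries by number, which the labels do not state. With it the sums were -0.0061 for 5S_rRNA and 0.37 for Metazoa_SRP, and no sum, copy or partner gene changed its call. Of 224 refits of partner genes, 214 kept their direction and side of the threshold, 5 lost the call, 2 gained it and 3 turned. Causes were not tested.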
